A study of Mus musculus with 15 samples.

Results

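The cytosolic ribosomal protein genes of the mouse were described in whole kidneys of telomerase-proficient and telomerase-deficient animals, with and without folic acid. Members were the 80 of 19602 genes in the table whose symbol is Rpl or Rps followed by a number, with or without one of the letters a, x, y and l, or Rplp followed by a digit, a choice made on names and not on measured values. They comprise 49 genes named for the large subunit and 31 named for the small subunit, and all 80 passed the filter on low counts. The name rule does not take 7 other ribosomal protein genes, Rpsa, Rps3a1, Fau, Rpl22l1, Rpl7l1 and Rpl36al among them, which were kept as a separate list. By GENCODE M21, 77 members are protein coding and 3 (Rps4l, Rpl32l and Rpl6l) are pseudogenes, and 4 (Rps4x, Rpl10, Rpl36a and Rpl39) lie on the X chromosome.

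The study set Tert+/+ mice (WT) against generation 3 Tert-/- mice (G3), which lack the reverse transcriptase of telomerase in every cell, and its title names telomere length and folic acid-induced kidney fibrosis. Males and females of 6 to 8 weeks received 1 intraperitoneal injection, and kidneys were perfused and taken at day 14. The groups were WT given 0.3 M NaHCO3 (200 µl) as vehicle (n = 4), WT given folic acid at 125 mg/kg (n = 3), G3 given the same vehicle (n = 4) and G3 given the same folic acid dose (n = 4). RNA was read from 3′ ends of polyadenylated transcripts in whole kidney, so fewer cells of a type and less RNA per cell cannot be told apart.

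Cytosolic ribosomal proteins are made in near equal amounts in every cell and assemble with ribosomal RNA in the nucleolus into the small subunit, which decodes the message, and the large subunit, which forms peptide bonds. Most of their messages belong to the TOP class: transcription starts at a C that is followed by a run of pyrimidines, and this 5′ terminal run lets mTORC1 and the RNA-binding protein Larp1 control how much of the message is translated. Because of that control, the RNA level of these genes is only a part of how much ribosomal protein a cell makes. Several members have roles of their own, among them Rpl5 and Rpl11, which bind the p53 ligase Mdm2 when ribosome assembly is disturbed.

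The start sites are shown because the TOP run is what sets most of these messages apart as a class. For 57 of the 77 protein-coding members RefSeq promoters of build GRCm38.p6 were at hand, and 36 of them (63.2%) had a C followed by at least 4 further C or T bases beginning within 10 bases of an annotated start, on the sense strand, against 34.4% of the 27025 genes in that collection. A C at an annotated start itself, followed by at least 4 C or T bases, was found in 13 members (22.8%) and in 3.01% of all genes. The sequence TATAAA, on either strand of the whole 300-base promoter, was found in 6 members (10.5%) and in 15.7% of all genes, and GCCAT in 32 members (56.1%) and 44.2% of all genes. These matches are descriptions of the letters around annotated starts, and a start that is annotated a few bases off moves the run. Below are 15 bases before the annotated start and 15 from it, 5′ to 3′ on the coding strand, for some of the members. Capitals begin at the C nearest the start that such a run follows. Rpl36 and Rps20, whose levels are described below, had no promoter at hand. Rpl38 lies at chr11:114668565-114668594 (+), Rpl28 at chr7:4792950-4792979 (+), Rpl35 at chr2:39005117-39005146 (-), Rpl6 at chr5:121204486-121204515 (+), Rps7 at chr12:28635939-28635968 (-), Rps4x at chrX:102189377-102189406 (-), Rps25 at chr9:44407699-44407728 (+), Rpl24 at chr16:55966260-55966289 (+) and Rpl3l at chr17:24727811-24727840 (+).
Rpl38: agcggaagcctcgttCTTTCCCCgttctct
Rpl28: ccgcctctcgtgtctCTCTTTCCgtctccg
Rpl35: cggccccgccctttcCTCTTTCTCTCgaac
Rpl6: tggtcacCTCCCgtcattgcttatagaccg
Rps7: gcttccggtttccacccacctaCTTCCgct
Rps4x: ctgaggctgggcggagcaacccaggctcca
Rps25: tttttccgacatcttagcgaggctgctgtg
Rpl24: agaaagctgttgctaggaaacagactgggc
Rpl3l: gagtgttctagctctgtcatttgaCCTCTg
In Rpl38, Rpl28 and Rpl35 the capitals begin at the annotated start, with further pyrimidines directly before it, and in Rpl6 they lie before the start. The windows of Rps4x, Rps25 and Rpl24 hold no run by this definition.

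The libraries held 5014684 to 6609307 reads (median 6091019). The values are gene counts divided by 1 size factor per library, called normalised counts here, and 1 read was worth 0.895 to 1.13 of them. In most libraries Xist and Y-linked RNA went against the sex given in the labels: the summed level of the Y-linked genes was 9.53 to 29.5 in WT given folic acid and 0.977 to 7.57 in G3 given vehicle, WT given vehicle and G3 given folic acid held most of the Y-linked RNA, and 2 libraries (WT vehicle 2 and G3 folic acid 4) held both kinds. The title numbers fall into the series 25, 26 and 27, with all WT folic acid libraries in series 26 and all G3 folic acid libraries in series 27, so that series and genotype cannot be told apart after folic acid. Gm42418, a locus that takes ribosomal RNA reads, held 23.0% of the counts in WT folic acid 1 and 4.85% to 8.15% in the other 14 libraries. The same library had a summed level of 6 fibroblast and pericyte markers of 6125, against 867 and 919 in the remaining WT mice given folic acid, 639 to 893 in WT vehicle, 479 to 1159 in G3 vehicle, 1591 to 3328 in G3 folic acid. For 8 B and plasma cell markers it stood at 12507, against 656 and 679 in the same 2 mice, 371 to 606 in WT vehicle, 181 to 812 in G3 vehicle, 81.9 to 2681 in G3 folic acid. None of these markers was at 0 throughout a group.

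Between 1.94% and 2.64% of all counts fell on the members. In WT given vehicle their share was 2.17%, 1.95%, 2.20% and 1.94% (2.07% ± 0.137, SD, n = 4), and in G3 given vehicle it was 2.60%, 2.24%, 2.52% and 2.41% (2.44% ± 0.155, SD, n = 4). These groups did not overlap in the share. After folic acid the share was 2.42%, 2.11% and 2.12% for WT (2.22% ± 0.178, SD, n = 3) and 2.48%, 2.64%, 2.07% and 2.51% in G3 (2.42% ± 0.248, SD, n = 4), and both of these groups overlapped the others. The share has all other RNA in its denominator, and with Gm42418 and the mitochondrial genes left out the group means were 3.04% for WT and 3.53% for G3 given vehicle, and 3.60% for WT and 3.49% for G3 given folic acid.

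On the scale of the authors' size factors the vehicle groups came closer together. The members' normalised counts summed to a mean of 129115 in WT vehicle, 142848 in WT folic acid, 135375 in G3 vehicle and 133036 in G3 folic acid. WT folic acid 1 stood at 170758, and the other 14 libraries at 122402 to 138554. That library held the highest value of all 15 libraries for 45 of the 80 members, and WT vehicle 2 held the lowest for 26. Rows annotated as ribosomal protein pseudogenes summed to 1642 to 1954 in WT folic acid and to at most 1570 in the other 12 libraries, so that this group lay above all others in reads assigned to near copies of the members. The ratio of large to small subunit counts ran from 1.30 to 1.52, with a mean of 1.49 in WT folic acid and of 1.35 to 1.40 in the other groups.

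**Figure D1:**
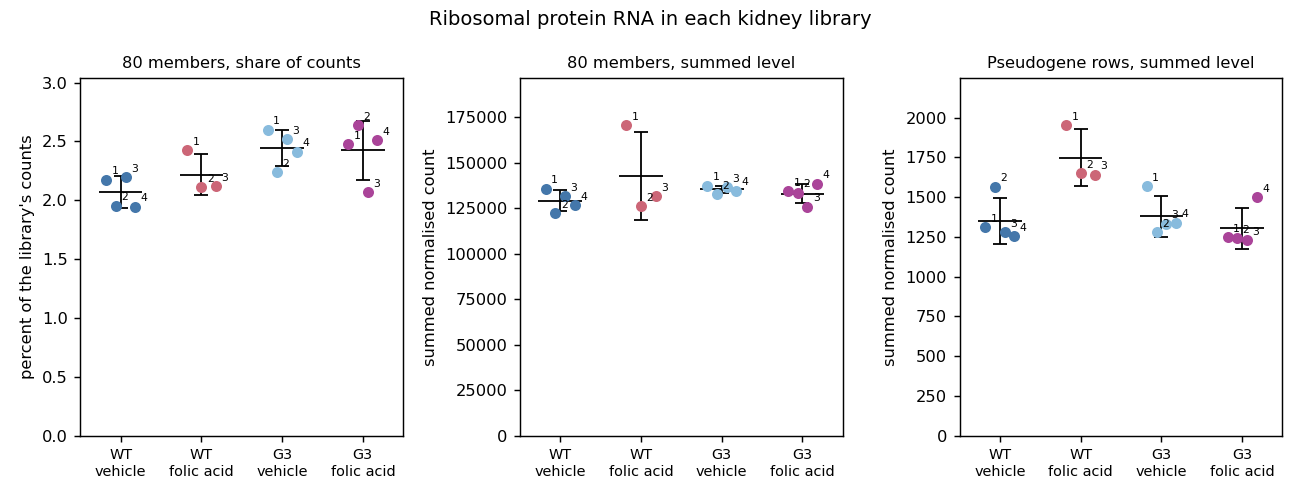
Each dot is 1 library, with its replicate number, in the 4 groups; bars give mean ± SD. The left panel gives the members' share of all counts in percent, the middle panel their summed normalised count and the right panel the summed normalised count of ribosomal protein pseudogene rows. WT folic acid 1 stands at 170758 in the middle panel, and all 3 WT folic acid libraries lie above the rest in the right panel.

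Member levels spanned from a mean of 7.89 (Rpl3l) to 5133 (Rps14) normalised counts over the 15 libraries, with a median of 1463. A mean of at least 1000 was found for 56 members and a mean under 100 for 4. Counting 3′ ends gives about as many reads per transcript for short as for long genes, so counts were not divided by length, but reads shared with near copies can move a member's level. The 5 highest, Rps14, Rpl41, Rps29 and Rplp1 among them, together held 16.6% of the members' counts, and the 10 highest held 28.4%. The lowest was Rpl3l, the paralog of Rpl3 that is made in heart and skeletal muscle.

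The order of the members by level was nearly the same in every library: Spearman's rho between pairs of libraries, across the 80 members, was 0.911 to 0.993 (median 0.960), a description across genes that are not independent. The members varied less within a group than genes in general. The median within-group SD of the log2 value was 0.20 for the 80 members and 0.31 for the 14651 genes tested. Among genes with a mean of at least 100 it was 0.19 for 76 members and 0.21 for 6454 genes. Rpl23a, Rpl18 and Rps26 varied least over the 15 libraries among members with a mean of at least 20, and Rpl39, Rps4l and Rpl41 varied most.

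Folic acid in WT kidneys was the comparison with the most called members. By limma with Benjamini-Hochberg adjustment over all 14651 genes, 5 members passed adjusted p under 0.05: 3 rose, Rpl38 and Rpl35 among them, and 2, Rpl36 and Rpl3l, fell. These are 6.25% of the members, beside 5.06% of all genes tested. Of these members, Rpl3l passed the filter on low counts only through WT vehicle. At an unadjusted p under 0.05 there were 16 members (20%), beside 23.1% of all genes, and 14 members had groups that did not overlap (11 higher, 3 lower), beside 19.9% of all genes. The share of members called was thus close to that of genes in general. The members' median log2 difference was 0.07, against 0.01 for all genes, and stood at 0.12 for the large and 0.04 for the small subunit. Without WT folic acid 1 the median of the members was -0.08 and 1 member was called, and without WT vehicle 1, 3 or 4 there was also 1 call each (3 without WT folic acid 3). In these fits 0.677% to 1.79% of all genes were called. The calls were 3 higher and 2 lower, and 4 higher and 1 lower under quantile normalisation or scaling to the total without Gm42418 and mitochondrial genes.

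Rpl38, a small protein of the large subunit that is needed for the translation of a set of Hox messages in the mouse embryo, had the lowest adjusted p of the members (chr11:114668524-114672331, + strand). Its normalised counts were 1298, 1492, 1406 and 1403 in WT vehicle (1400 ± 79.2, SD, n = 4), and WT folic acid had 2293, 1892 and 2168 (2117 ± 205, SD, n = 3). The G3 values were 1540, 1547, 1447 and 1461 with vehicle (1499 ± 52.0, SD, n = 4) and 1368, 1430, 1460 and 1486 with folic acid (1436 ± 50.7, SD, n = 4). All 3 WT folic acid libraries lay above all 12 others, which ran from 1298 to 1547.
The WT difference was 0.59 on the log2 scale (SE 0.10, 1.51-fold, limma adjusted p = 0.00895). It passed in each of the 15 fits that left out 1 library. Within title series 26, where 3 WT libraries of each treatment stand, it was 0.60 (exact permutation p = 0.1, 2-sided, the smallest that 3 against 3 allow). Only WT vehicle 4 is left out there, so a value close to 0.59 was largely given in advance. With the Y-linked share as a covariate the difference was 0.51 (limma adjusted p = 0.981), and with the title series as a covariate it was 0.60 (adjusted p = 0.0585); these fits called 1 and 2 of all 14651 genes.
The summed level of 4 markers of the thick ascending limb, none at 0, also separated these libraries, at 32087 to 37249 in WT folic acid against 19329 to 24663 in WT vehicle, 18857 to 23994 in G3 vehicle and 15822 to 24455 in G3 folic acid. The part of the Y-linked share, of these cells and of pseudogene reads in the Rpl38 values was not tested. Of the 50-base windows in the last 300 bases of Rpl38 transcripts, 65.3% also occur in transcripts of 5 other genes.

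Most like Rpl38 across the 15 libraries, among the members reported, were Rpl6 (Pearson's r of the log2 values 0.878), Rpl27a (0.803), Rps15 (0.765) and Rps20 (0.756), libraries and size factors being shared by all of them.

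Rpl35 sits beside the exit tunnel of the large subunit. It had normalised counts of 884, 845, 662 and 816 in WT vehicle and 1662, 1087 and 1019 in WT folic acid. In G3 the values were 843, 734, 873 and 949 with vehicle and 882, 882, 925 and 1037 with folic acid. WT folic acid 1 was far above the rest, and the other WT folic acid libraries fell within the range of G3 or just above it. The WT difference of 0.62 (log2, SE 0.16, limma adjusted p = 0.0344) became 0.40 (adjusted p = 0.156) without WT folic acid 1, and without WT vehicle 1, 3 or 4 its adjusted p was 0.0608 to 0.0961.

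Rpl36, a large subunit protein, was the one well-measured member called lower in WT by limma over all 15 libraries with equal weights. Its normalised counts were 1684, 1371, 1411 and 1380 in WT vehicle and 1023, 1088 and 1092 in WT folic acid. In G3 they were 1528, 1525, 1250 and 1266 with vehicle and 1167, 1172, 1168 and 1143 with folic acid. WT folic acid was below the other 3 groups, and G3 folic acid was below both vehicle groups. The WT difference was -0.45 (log2, SE 0.11, limma adjusted p = 0.0329), and that in G3 was -0.25 (adjusted p = 0.282). The WT call was lost without WT vehicle 1, 3 or 4 or any 1 of the WT folic acid libraries (adjusted p of 0.0671 to 0.113), and under quantile normalisation (-0.34, adjusted p = 0.0815) or scaling to the total without Gm42418 and mitochondrial genes (-0.36, adjusted p = 0.0714).
Rpl3l was measured on few reads, at 17.0, 13.3, 12.5 and 14.0 normalised counts in WT vehicle and 3.4, 1.0 and 5.7 in WT folic acid. In G3 it was at 3.1, 7.8, 5.4 and 5.0 with vehicle and at 6.4, 3.8, 14.0 and 6.3 with folic acid. Its WT difference was -1.96 on the log2(normalised count + 1) scale (SE 0.48, limma adjusted p = 0.0311), with an adjusted p of 0.0691 to 0.0979 without WT vehicle 1, 3 or 4 or WT folic acid 1 or 2, and the vehicle genotypes also did not overlap (-1.31, adjusted p = 0.123). Rpl3l passed the filter on low counts only through WT vehicle, the group where it was high. Its call and its lack of overlap against that group are therefore descriptions only.

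Within title series 26 the differences between 3 WT vehicle and 3 WT folic acid libraries were 0.63 for Rpl35 and -0.47 for Rpl36 (log2, exact permutation p = 0.1 each, 2-sided, the smallest possible). For Rpl3l the difference was -1.97, a description only because of the filter. Of the WT libraries only WT vehicle 4 is left out there, so values close to those over all WT libraries were largely given in advance. With the title series or the Y-linked share as a covariate none of the 5 members was called in WT, beside 0.0137% and 0.00683% of all genes. No member is deleted or targeted in these mice.

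**Figure D2:**
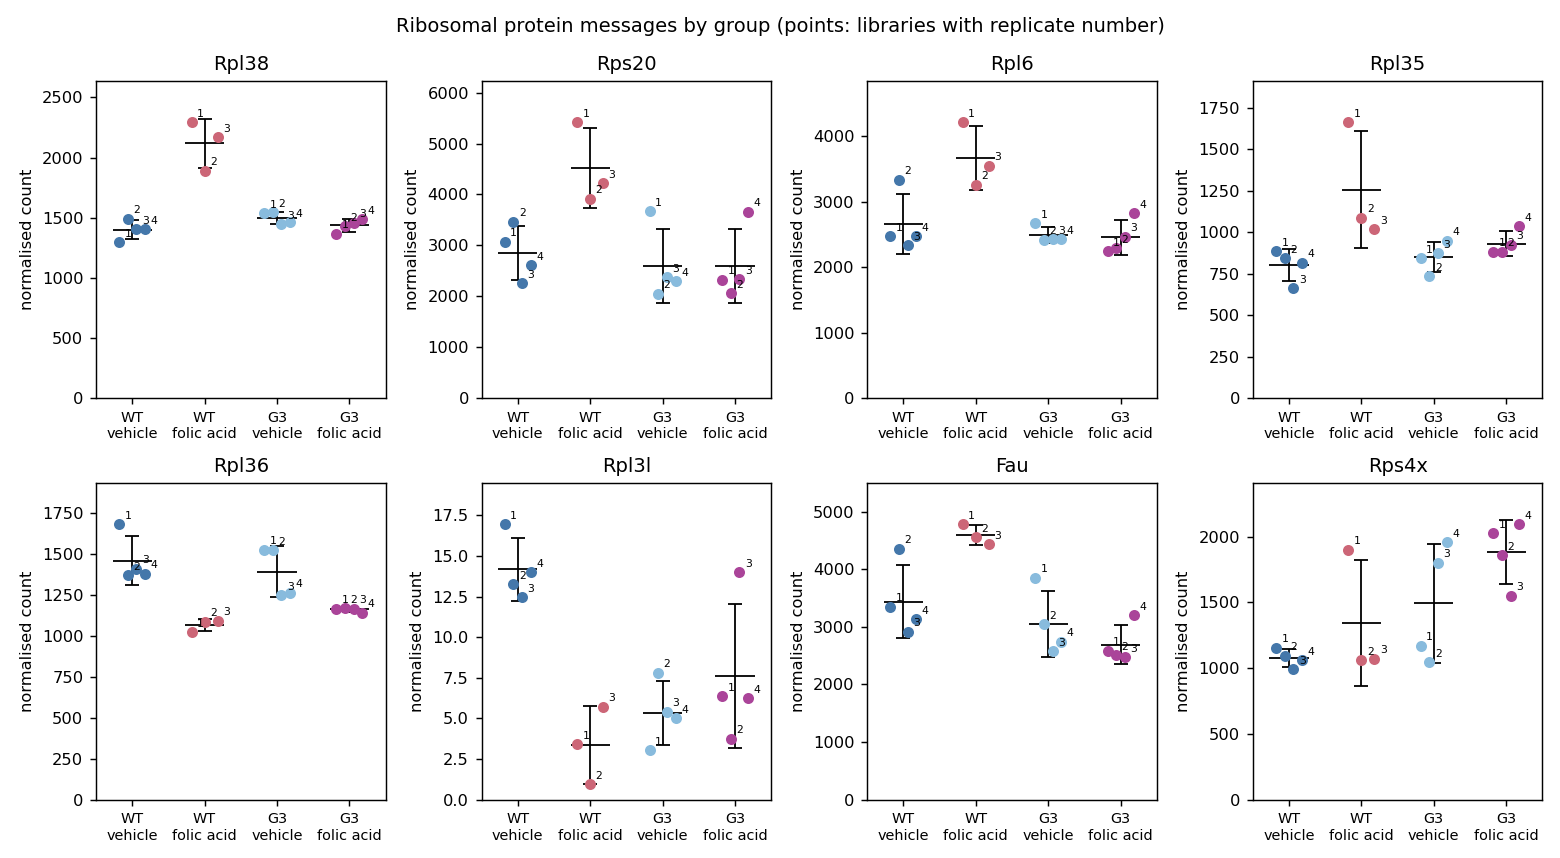
Normalised counts of Rpl38, Rps20, Rpl6, Rpl35, Rpl36, Rpl3l, Rps4x and of Fau, a ribosomal protein gene outside the name rule, with 1 dot per library and mean ± SD by group. In the Rpl38 and Rps20 panels the 3 WT folic acid libraries lie above all others, and those of Rpl36 lie under all others.

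In G3 kidneys folic acid changed no member by limma. There were 0 calls of 80, beside 0.273% of all genes, edgeR also called 0, and DESeq2 called 1 (Rps25), beside 2.64% of all genes. At an unadjusted p under 0.05 there were 4 members, all with lower values after folic acid (Rpl24, Rpl36, Rpl36a and Rps25), beside 13.8% of all genes. Groups did not overlap for 6 members, 1 higher (Rpl10a) and 5 lower (Rpl24, Rpl30, Rpl36, Rps13 and Rps25), beside 7.75% of all genes. The median log2 difference was -0.04, against -0.01 over all genes, and all 80 members lay within 0.5 of 0.

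Rps25, a small subunit protein used by several viral internal ribosome entry sites, had the lowest p in G3. Its normalised counts were 1998, 2047, 2158 and 2073 in G3 folic acid, and 3002, 2651, 2335 and 2497 in G3 vehicle. In WT it was at 2865, 2508, 2698 and 2679 with vehicle and at 2531, 2284 and 2344 with folic acid. The G3 folic acid libraries lay below the other 11, and the difference in G3 was -0.34 (log2, SE 0.10, limma adjusted p = 0.138). Rpl24, a large subunit protein at the bridge to the small subunit, stood at 862 to 954 in G3 folic acid and at 985 to 1305 in the other 11 libraries. Its difference in G3 was -0.30 (SE 0.10, adjusted p = 0.182), and in WT it was -0.18 (SE 0.11, adjusted p = 0.345).

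Genotype, compared after vehicle, also gave no called member by limma or edgeR, beside 2.9% of all genes. These groups also differed in summed Y-linked RNA, at 283 to 867 in WT and 0.977 to 7.57 in G3. WT vehicle lay in title series 26 and 27 and G3 vehicle in 25 and 27. The part of sex and series in the differences between these groups was not tested. DESeq2 called 1 (Rpl36a), beside 5.37% of all genes. Limma called 1 (Rpl36a) without WT folic acid 1, G3 folic acid 2 or G3 folic acid 3, beside 3.7% to 4.4% of all genes. At an unadjusted p under 0.05 there were 10 members (9 higher and 1 lower in G3), beside 17.9% of all genes. Groups did not overlap for 4 members, with Rpl36a and Rps7 higher and Rpl3l and Rps27l lower in G3, beside 11% of all genes. The median log2 difference was 0.09, against 0.02 for all genes, and was 0.06 for the large and 0.13 for the small subunit. Under quantile normalisation it was 0.22, and under scaling to the total without Gm42418 and mitochondrial genes it was 0.23.

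X-linked Rpl36a was at 680, 609, 750 and 645 normalised counts in WT vehicle and at 885, 925, 925 and 832 in G3 vehicle. The difference was 0.41 (log2, SE 0.11, limma adjusted p = 0.0536). After folic acid it was at 648 to 799 in WT and at 660 to 862 in G3, overlapping the range of WT vehicle in both. Rps27l, a paralog of Rps27 that is a target of p53, was at 608, 616, 636 and 757 in WT vehicle and at 504, 488, 542 and 581 in G3 vehicle (log2 difference -0.30, SE 0.16, adjusted p = 0.322). With the Y-linked share as a covariate that difference was 0.22.

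After folic acid, limma over all 15 libraries called Rpl38 and Rpl6 lower in G3 than in WT kidneys. In all 3 members (3.75%) passed by limma, all lower in G3, beside 2.3% of all genes. At an unadjusted p under 0.05 there were 21 members, 7 higher and 14 lower in G3, beside 20.4% of all genes, and 15 members did not overlap between the groups (2 higher, Rpl27 and Rpl36, and 13 lower), beside 17.3%. The median difference was 0.01, as for all genes (0.01), with -0.10 for the large and 0.11 for the small subunit. The log2 difference was -0.56 for Rpl38 (limma adjusted p = 0.0155) and -0.58 for Rpl6 (SE 0.14, adjusted p = 0.0404).
Rpl6, a large subunit protein, was at 4211, 3260 and 3550 normalised counts in WT folic acid and at 2240, 2289, 2463 and 2823 in G3 folic acid. With vehicle it was at 2472, 3336, 2335 and 2475 in WT and at 2666, 2422, 2426 and 2429 in G3. WT vehicle 2 reached the range of WT folic acid, and the difference between the WT groups was 0.48 (adjusted p = 0.0572).
The number of members called was 0 without WT folic acid 3 or G3 folic acid 1, 1 without WT folic acid 2 or G3 folic acid 3, 5 without G3 vehicle 1 or G3 folic acid 4, and 6 without WT vehicle 2 or WT folic acid 1. Over these fits 0.185% to 4.31% of all genes were called. Rpl38 itself had an adjusted p of 0.0802 without WT folic acid 3 and of 0.068 without G3 folic acid 1. Rpl6 passed in 4 of the 15 fits.

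The folic acid effects of the genotypes were compared directly by the interaction term. A lower folic acid effect in G3 than in WT was found for 2 members, Rpl38 among them (-0.66, SE 0.14, limma adjusted p = 0.0149), beside 3.82% of all genes. At an unadjusted p under 0.05 there were 9 members, beside 16.8% of all genes. The median was -0.11 for the members and -0.01 for all genes. This comparison, those within a genotype and those within a treatment share libraries, so that the high WT folic acid values of Rpl38 enter 3 of them. The Rpl38 interaction passed in each of the 15 fits that left out 1 library. With the labelled sex as a covariate the adjusted p of the Rpl38 interaction was 0.0546, and with the Y-linked share it was 1. These fits called 0.703% and 0.0137% of all genes.

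**Figure D3:**
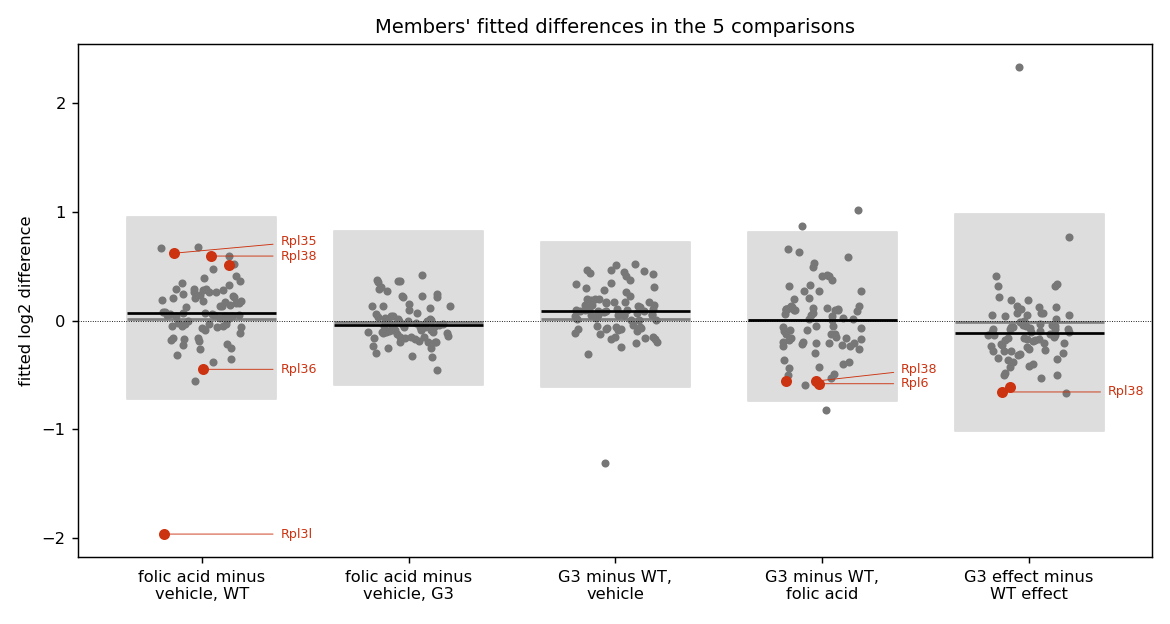
Log2 differences of all members in the 5 comparisons, 1 point per member, with those called by limma in red. The black line is the members' median, the grey line that of all genes tested and the grey box their 5th to 95th percentile; in WT the medians are 0.07 and 0.01.

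Among further members, Rplp0, Rpl5, Rpl11, Rps6, Rps19 and Rps20 were not called by limma over all 15 libraries with equal weights. Rplp0, the stalk protein that is often taken as a reference gene, was at 2063 to 2219 normalised counts in WT vehicle, 2319 to 2972 in WT folic acid, 2087 to 2325 in G3 vehicle and 2078 to 2424 in G3 folic acid. Its difference in WT was 0.28 (log2, SE 0.11, limma adjusted p = 0.146), with groups that did not overlap, and DESeq2 called it (adjusted p = 0.04999). Rpl5 and Rpl11, the Mdm2 partners, differed by 0.08 (SE 0.16, adjusted p = 0.816) and -0.05 (SE 0.15, adjusted p = 0.887) in WT after folic acid. In G3 against WT after vehicle they differed by 0.15 (SE 0.15, adjusted p = 0.657) and 0.27 (SE 0.14, adjusted p = 0.328). Rps6, the target of the S6 kinases, differed by 0.27 (SE 0.17, adjusted p = 0.362) in WT and by 0.13 (SE 0.16, adjusted p = 0.779) in G3. Rps19, mutated in Diamond-Blackfan anaemia, differed by -0.19 (SE 0.14, adjusted p = 0.45) in WT and by 0.15 (SE 0.13, adjusted p = 0.674) in G3. Rps20, a protein of the small subunit head, was at 5415, 3918 and 4215 in WT folic acid and at 2048 to 3668 elsewhere, and its WT difference of 0.67 (SE 0.22) had an adjusted p of 0.0836. For Rps20 the adjusted p was 0.0466 with DESeq2, 0.0230 with library weights and 0.0475 without WT vehicle 2. After folic acid its difference between G3 and WT was -0.82 (adjusted p = 0.0576; 0.0185 with DESeq2, 0.00828 with library weights, and 0.0467, 0.0315 and 0.0251 without WT vehicle 2, G3 vehicle 1 and G3 folic acid 4).

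The common pattern of the members separated single libraries of the same group. In a principal component analysis of the log2 values of the 78 members with a mean of at least 20, the first component held 46.9% of the variance and the second 24.9%. On the first, WT vehicle 2 (3.16) and WT folic acid 2 (2.60) stood at one end and G3 folic acid 2 (-2.16) and G3 folic acid 1 (-1.78) at the other. Rpl39, Rps23, Rps4l, Rpl9, Rps21 and Rps28 were low in the first pair, and Rpl32l, Rps20, Rpl14, Rpl8, Rpl26 and Rpl6 were high there. On the second, WT folic acid 1 (3.31) stood apart, with high Rpl41, Rps20 and Rpl35. Rpl41, the smallest ribosomal protein, was at 8657 normalised counts in that library and at 2494 to 6662 in the others. Over the 3003 pairs of members Pearson's r across the 15 libraries had a median of 0.29, and 71.4% of pairs were above 0, with libraries and size factors shared by all pairs.

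**Figure D4:**
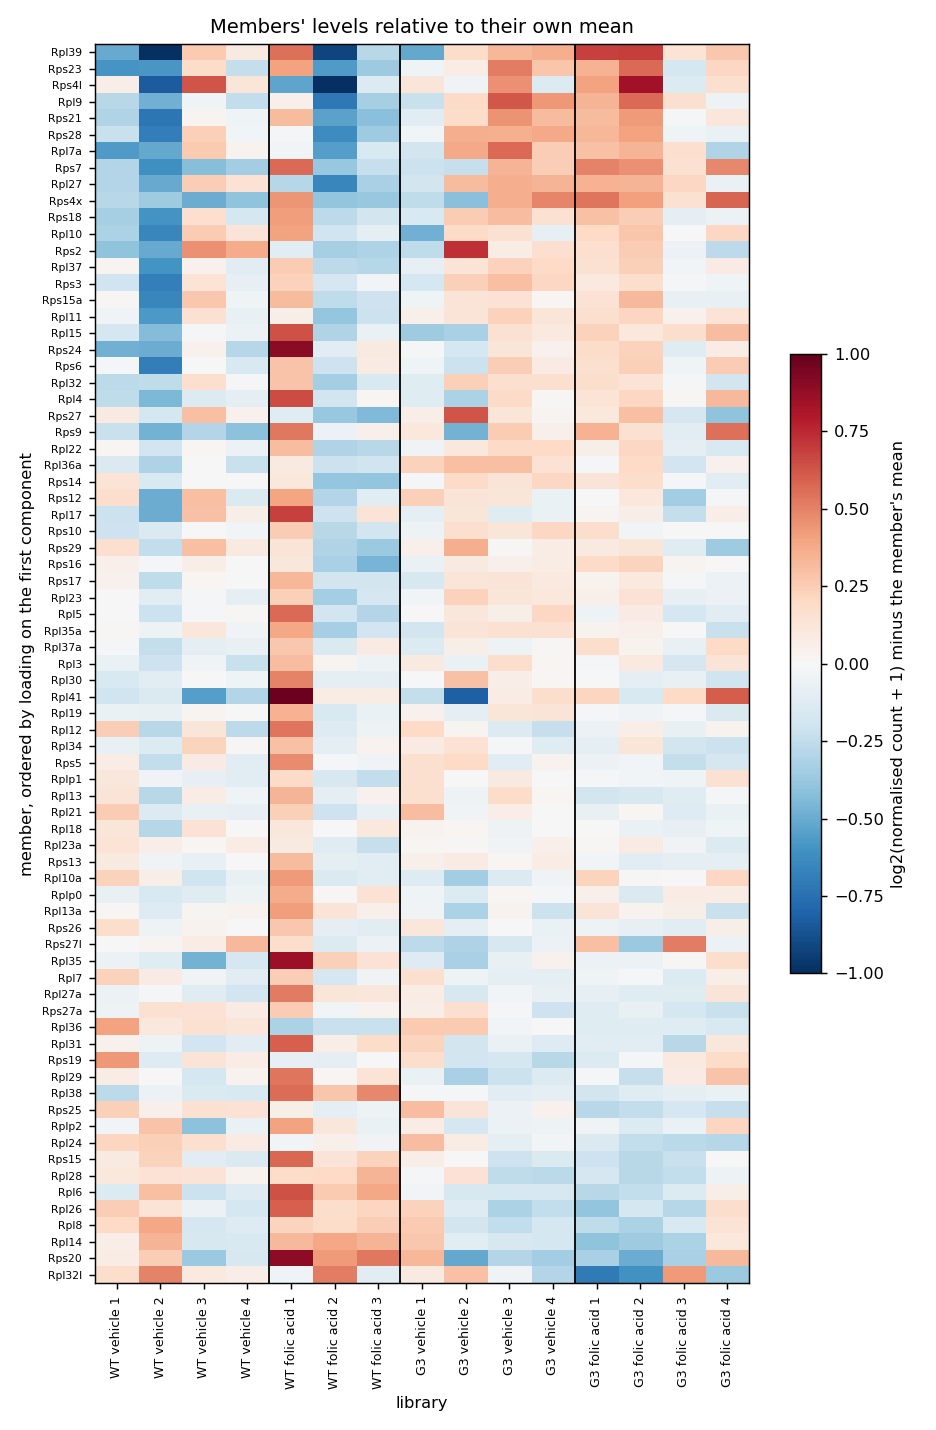
Deviation of each of 75 members (rows, ordered by loading on the first component) from its own mean log2 value in the 15 libraries (columns, by group), with colours limited to -1 and 1. WT vehicle 2, WT folic acid 2, G3 folic acid 1 and G3 folic acid 2 show the opposite ends of the row order, and WT folic acid 1 is high for most rows.

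Rps4x, the X-linked small subunit protein, split the libraries into low and high values, a pattern that was chosen after the values were seen. Its normalised counts were 1155, 1095, 993 and 1060 in WT vehicle and 1900, 1062 and 1072 in WT folic acid. They were 1170, 1047, 1802 and 1957 in G3 vehicle and 2025, 1856, 1551 and 2095 in G3 folic acid. Values of 993 to 1170 were thus found in 8 libraries and of 1551 to 2095 in 7, with nothing between. All 4 WT vehicle libraries were low and all 4 G3 folic acid libraries were high, while WT folic acid and G3 vehicle held both kinds.
Rps7, another small subunit protein, was at 451 to 594 in the same 8 libraries and at 767 to 1026 in the same 7 (r = 0.955 with Rps4x over 15 libraries, after which came Rps9 with 0.809, Rpl15 with 0.792 and Rpl4 with 0.777). Of the title series, 26 held 5 low and 1 high library, 27 held 1 low and 5 high, and 25 held 2 low and 1 high. The part of the series in this split was not tested. With all 15 libraries at equal weight no group difference of either gene passed by limma. For Rps4x the differences were 0.27 (SE 0.22) for folic acid in WT, 0.37 (SE 0.20) in G3 and 0.42 (SE 0.20) for genotype after vehicle, with limma adjusted p of 0.499, 0.449 and 0.288. Without WT folic acid 1 the WT difference was -0.0095, and after folic acid G3 was higher than WT for Rps4x (0.81, adjusted p = 0.0409, from 0.53 and 0.188) and Rps7 (0.70, adjusted p = 0.0333, from 0.41 and 0.256). With library weights Rps4x was called for genotype after vehicle (0.60, adjusted p = 0.0327) and after folic acid (0.78, adjusted p = 0.00551), and Rps7 was called in both as well. Of the 50-base windows at the 3′ ends, 62.2% for Rps4x and 99.6% for Rps7 also occur in transcripts of other genes.

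**Figure D5:**
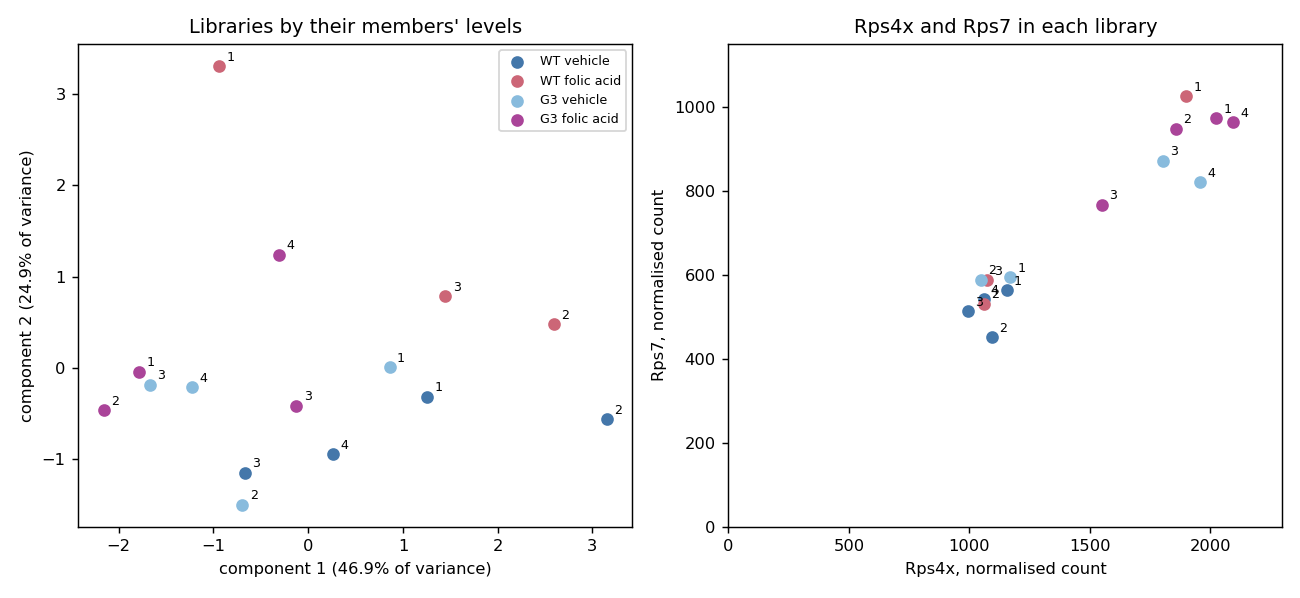
Left, scores of the 15 libraries on components 1 and 2 of 78 members, with 46.9% and 24.9% of the variance. Right, normalised counts of Rps4x against Rps7 in the same libraries, which form a set of 8 at low values of both and a set of 7 at high values of both.

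Members with a pyrimidine run near the start had a median log2 difference of 0.10 for folic acid in WT, and those without it of 0.08. The corresponding medians were -0.01 and -0.01 in G3, 0.08 and 0.11 for genotype after vehicle, 0.05 and 0.01 for genotype after folic acid, and -0.11 and -0.12 for the interaction. Of the last 300 bases of the 77 protein-coding members, 18 had no 50-base window in transcripts of another gene and 44 had more than 50% of their windows there (median 56.6%). That share was 96.0% for Rpl35, 89.2% for Rpl36 and 0 for Rpl6 and Rpl3l. Reads of members with shared windows may not be told apart from reads of copies, which makes the levels of those members uncertain. Over the 77 genes Spearman's rho of that share was -0.20 with the mean level and -0.06 with the SD. The largest rho among the properties compared with level, SD and component loadings was 0.37, of transcript length with the second component (76 genes). Lengths and window shares rest on 1 annotated transcript per gene, with a median of 761 bases but 5130 for Rps15a and 3706 for Rps20. Both of these had a share of 0, and Rps20 had a loading of 0.30 on the second component. Shares, lengths and these rho values therefore depend on the transcript taken.

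Other genes of the translation machinery were taken from lists that earlier results of these libraries may have shaped. Of all genes, limma called 5.06% for folic acid in WT and 0.273% in G3. It called 2.9% for genotype after vehicle, 2.3% after folic acid and 3.82% for the interaction. At an unadjusted p under 0.05 the shares were 23.1%, 13.8%, 17.9%, 20.4% and 16.8% in the same order. Among the 7 ribosomal protein genes outside the name rule, limma called 0 for folic acid in WT and 0 in G3. It called 0 for genotype after vehicle, 1 after folic acid and 0 for the interaction. At an unadjusted p under 0.05 there were 3, 1, 2, 4 and 2 of the 7 in the same order. The called gene was Fau, whose product is split into a ubiquitin-like part and a small subunit protein. It was at 4784, 4555 and 4433 normalised counts in WT folic acid and at 2586, 2513, 2477 and 3200 in G3 folic acid, without overlap (log2 -0.78, limma adjusted p = 0.0231). With vehicle it was at 3352, 4356, 2916 and 3134 in WT and at 3853, 3041, 2577 and 2739 in G3.
Of 24 translation factors and other messages of the TOP class, 2 rose with folic acid in WT: Naca, a subunit of the complex that meets nascent chains at the exit tunnel (0.55, adjusted p = 0.0184), and Snhg1, a host of small nucleolar RNAs (0.77, adjusted p = 0.0205). Naca was also lower in G3 than in WT after folic acid (-0.48, adjusted p = 0.0439) and had an interaction of -0.66 (adjusted p = 0.0282). The list's medians were 0.02 in WT, 0.04 in G3 and 0.14 for genotype after vehicle. At an unadjusted p under 0.05 there were 9, 0, 4, 5 and 4 of its 24 genes in the 5 comparisons, in the order of the shares above.
Of 42 ribosome biogenesis genes, Eif6, which keeps subunits apart, rose with folic acid in WT (0.60, adjusted p = 0.0438), and Nop2, a ribosomal RNA methyltransferase, fell (-0.67, adjusted p = 0.0434). Nhp2, a core protein of the H/ACA particles, which also hold the telomerase RNA, was lower in G3 than in WT after vehicle (-1.46, adjusted p = 0.00971) with an interaction of 1.74 (adjusted p = 0.0229). Of 22 genes that control translation, Mtor, the kinase that acts on messages of the TOP class, was lower in G3 after vehicle (-0.86, adjusted p = 0.0319) with an interaction of 1.20 (adjusted p = 0.0348). At an unadjusted p under 0.05 there were 10, 3, 5, 4 and 4 of the 42 biogenesis genes, in the order of the shares above. For the 22 control genes the counts were 6, 3, 2, 4 and 3. With the Y-linked share as a covariate, limma called 0.00683% of all genes for folic acid in WT and for genotype after vehicle. It called 0.116% after folic acid and 0.0137% for the interaction. With the title series the shares were 0.0137%, 0.00683%, 0% and 0.0205% in that order. All calls of Fau, Naca, Snhg1, Eif6, Nop2, Nhp2 and Mtor were lost with either covariate, which was thus largely given in advance. Each was also lost without single libraries: adjusted p was 0.2 for Eif6, 0.171 for Nop2, 0.0954 for Snhg1 and 0.0827 for Naca (folic acid in WT) without WT folic acid 1, 0.0919 for Fau without WT folic acid 3, and 0.0513 for Nhp2 and 0.126 for Mtor (genotype after vehicle) without WT vehicle 1.
Mitochondrial ribosomal proteins, which build a separate ribosome, served for contrast. Of 77 tested, 4 fell with folic acid in WT (Mrpl14, Mrpl16, Mrps26 and Mrps33) beside 5.06% of all genes, and 0 were called in G3. At an unadjusted p under 0.05 there were 22 in WT, 4 in G3, 18 for genotype after vehicle, 24 after folic acid and 14 for the interaction. The shares of all genes at that p were 23.1%, 13.8%, 17.9%, 20.4% and 16.8% in the same order. After vehicle 2 were called lower in G3 (Mrps18b and Mrps27), after folic acid 2 were called lower in G3 (Mrpl48 and Mrps27), and 3 (Mrpl16, Mrpl57 and Mrps18b) had a called interaction above 0. Of all genes, 2.9%, 2.3% and 3.82% were called in these comparisons. Of the fits with 1 library left out, Mrpl48 passed in 5 of 15, and these interactions in 2, 6 and 3. With the Y-linked share or the title series no call of Mrpl14, Mrpl16, Mrps26, Mrps18b, Mrps27, Mrpl48 or Mrpl57 held. Those fits called at most 0.116% of all genes. Their median log2 difference was -0.16 in WT and -0.01 in G3, and -0.14 for genotype after vehicle.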

How the data were processed

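Whole-kidney RNA of 15 mice was sequenced from 3′ ends with a stranded kit, per the labels' protocols. The submitters' processing notes name FastQC 0.11.7, an alignment to GRCm38 by TopHat2 2.0.10 (Bowtie 1.0.0, SAMtools 0.1.19), gene counting by HTSeq 0.6.1, and DESeq2, with an annotation release not given in the sources used here. Each deposited signal is the gene count over a size factor that the authors applied to each library, as the values and, per the file headers, the names show. Dividing by each library's step gave whole reads for 100% of values within 0.001 of a whole number, with 5014684 to 6609307 reads per library, so that a member at 1000 counts carries little counting error and one near 10 carries much.

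Groups came from the labels, and replicate numbers follow accession order. Tests covered the 14651 genes that reached 10 normalised counts in 3 or more libraries, on log2(normalised count + 1) by limma 3.58.1 (R 4.3.3; trend; 1 term per group; all 15 libraries), and calls were made at a Benjamini-Hochberg adjusted p under 0.05. The labels describe the libraries as separate animals, and p-values measure the spread between them. Fold changes on this scale understate those of low genes.

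Alternatives were other filters (none, or 50), pseudocounts of 0.5 and 5, other scalings, covariates, library weights, fits of 2 groups, edgeR 4.0.16 and DESeq2 1.42.0 on the recovered reads, and leaving out single libraries. The fits were tested on simulated data. Gene positions came from GENCODE M21 and start windows from RefSeq (GRCm38.p6). The markers Ly6g, Cyp11b1, Myh4 and Ckm had no value here. The libraries nearest to each other in reads were G3 vehicle 3 and 4 (mean chi-square per gene 2.79), then WT folic acid 2 and 3 (2.92). The next pair, WT vehicle 3 and 4, stood at 6.82. Even the nearest libraries differed beyond sampling noise.

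The members and lists were chosen with earlier results of these data known. Members were named by rule: in each comparison, among those with a mean of at least 20, up to 6 called each way and the 3 highest and 3 lowest differences; the 5 highest and 5 lowest means; the 3 largest and smallest SDs; a panel of members with known roles; and from other lists at most 3 genes per comparison. Genes named outside it, such as those in lists of groups that did not overlap, were chosen after their values were seen. Some members are not reported here by name, but count in all totals.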

Additional observations from a re-analysis of the deposited data

Results flagged for a closer look

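Folic acid effects that differed between WT and G3 by the interaction term, as G3 minus WT on the log2 scale, were -0.66 for Rpl38 and, outside the members, -0.66 for Naca, 1.74 for Nhp2, 1.20 for Mtor, 0.73 for Mrpl16, 0.97 for Mrpl57 and 0.71 for Mrps18b. With the Y-linked share or the title series as a covariate, no member passed the test of this difference, beside 0.0137% and 0.0205% of all genes.

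Single libraries stood apart in 14 of the 120 groups of 4 values looked at, by the gap to the nearest library as a share of the group's range. The groups covered 38 named members, the members' share of counts and the ratio of large to small subunit counts. Chance gives about 1 in 20 groups, but these groups are not independent, since they share libraries and size factors. G3 vehicle 1 stood apart for Rpl14 (0.867), Rpl27 (0.911) and Rpl6 (0.969), and G3 folic acid 4 for Rpl14 (0.849), Rplp1 (0.868) and Rps20 (0.830). WT vehicle 2 stood apart for Rpl5 (0.902) and Rpl6 (0.861) and WT vehicle 1 for Rpl36 (0.870). G3 folic acid 2 stood apart for Rpl6l (0.842) and Rplp0 (0.867; 2078 normalised counts against 2377 to 2424), G3 vehicle 2 for Rps27 (0.875) and Rps29 (0.838), and G3 folic acid 3 for Rps7 (0.878).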

How the results depend on the processing

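Each comparison was fitted under 16 other settings (15 for the interaction, which has no fit of 2 groups) and 15 times with 1 library left out. No paired analysis was possible because replicate numbers follow accession order and the labels pair no animals. For folic acid in WT, 5 members were called; the count was 0 with the Y-linked share or the title series, 11 with library weights or DESeq2, 1 in a fit of 2 groups, 1 without the library of highest Gm42418, and 1 to 7 with 1 library left out. Its median was -0.051 with weights, -0.080 without the library of highest Gm42418 and -0.080 to 0.16 with 1 left out. The share of all genes called moved as well. For folic acid in WT it was 14.2% with weights, 8.58% with DESeq2 and 2.87% in a fit of 2 groups. It was 0.00683% with the Y-linked share, 0.0137% with the title series and 0.677% to 8.95% with 1 left out. For folic acid in G3, DESeq2 called 1 member, beside 2.64% of all genes. For genotype after vehicle, 1 member was called with the stricter filter, quantile normalisation, the total without Gm42418 and mitochondrial genes, DESeq2 or without the library of highest Gm42418, 4 with weights, and 0 to 1 with 1 left out; the median was 0.22 with quantile normalisation and 0.23 with that total.
For genotype after folic acid the count was 1 with quantile normalisation, 0 with the Y-linked share, the title series or a fit of 2 groups, 24 with weights, 8 with DESeq2, 8 without the mixed libraries, 6 without the library of highest Gm42418, and 0 to 6 with 1 left out; the median was 0.14 without that library and -0.12 to 0.14 with 1 left out. For the interaction the count was 1 without a filter, 0 with labelled sex, the Y-linked share or the title series, 4 with weights or without the mixed libraries, 1 without the library of highest Gm42418, and 1 to 3 with 1 left out; the median was -0.26 with the Y-linked share, 0.036 with weights, 0.040 without the library of highest Gm42418 and -0.21 to 0.040 with 1 left out. The interaction count was 1 in 12 of the fits with a library left out. Of all genes, 10.2% were called with weights and 5.37% with DESeq2 for genotype after vehicle. After folic acid the shares were 19.5% with weights, 5.31% with DESeq2 and 3.98% without the mixed libraries. They were 0.505% in a fit of 2 groups, 0.116% with the Y-linked share, 0% with the title series and 0.185% to 4.31% with 1 left out. For the interaction the shares were 10.6% with weights, 6.66% without the mixed libraries and 1.73% to 6.34% with 1 left out. With labelled sex, the Y-linked share and the title series they were 0.703%, 0.0137% and 0.0205%. Without Gm42418 and mitochondrial genes the members' share was 3.04% for WT and 3.53% for G3 given vehicle, and 3.60% for WT and 3.49% for G3 given folic acid. Directions turned for Rps4x with folic acid in G3 (-0.066 with the title series) and in WT (-0.0095 without WT folic acid 1, the library of highest Gm42418, and up to 0.41 with another left out), for Rps27l with the Y-linked share (0.22 for genotype after vehicle, -0.42 for the interaction) and for the Nhp2 interaction with that share (-0.043). For folic acid in WT they turned for Rpl5 (-0.17 with weights, -0.19 without WT folic acid 1 and up to 0.24 with another left out) and Rpl11 (0.039 with quantile normalisation, 0.043 with the total without Gm42418 and mitochondrial genes, 0.018 with labelled sex, 0.20 with the Y-linked share, 0.048 without WT vehicle 3 and 0.057 without WT folic acid 2). The edgeR test on recovered reads called 5, 0, 0, 3 and 2 members in the 5 comparisons in the order above, among 756, 50, 409, 369 and 586 genes. The cause of the differences between settings was not tested. Depth limits Rpl3l and Rpl6l, with means under 10.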
